A study of Homo sapiens with 12 samples.

Results

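The genes described here encode the subunits of the oxidative phosphorylation system. They were chosen by symbol: NDUF genes of the A, B, S, V and C series, SDH genes, UQCR genes, COX4 to COX8 genes and ATP5 genes, from array features (probe sets) that the platform annotation gives exactly 1 gene symbol. This gave 81 of 19775 genes, with 156 probe sets, and each gene was represented by its probe set with the highest mean log2 signal. Complex I had 35 genes, complex II 3, complex III 6, complex IV 18 and complex V 19. The symbol rule also took in genes that encode no subunit. NDUFV2-AS1, NDUFV1-DT and NDUFB2-AS1 are long noncoding RNAs, ATP5MC2P1 and COX6A1P1 are pseudogenes, and ATP5IF1 encodes an inhibitor of the ATP synthase. In all, 76 of the 81 are protein coding.

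Oxidative phosphorylation takes place in the inner mitochondrial membrane. Complex I (NADH dehydrogenase) and complex II (succinate dehydrogenase, also an enzyme of the citrate cycle) pass electrons to ubiquinone, complex III (cytochrome bc1) passes them to cytochrome c, and complex IV (cytochrome c oxidase) to oxygen. Complexes I, III and IV pump protons, and complex V (ATP synthase) uses the proton gradient to make ATP. Most subunits are encoded by nuclear genes such as those described here, while a smaller group is encoded by mitochondrial DNA and is not analysed here.

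The study measured RNA of U937 cells, a human monocytic line derived from a histiocytic lymphoma, on 12 Affymetrix arrays. By electroporation they had received a plasmid for the wild-type PML-RARA fusion joined to GFP (PRWT), for the PR2VR form of the fusion joined to GFP, or for GFP alone. PML-RARA is the fusion protein of acute promyelocytic leukemia. PR2VR is taken to be a protease-resistant form, since the series is named for one, but its sample labels describe its plasmid as wild type in the same words as that of PRWT. GFP-positive cells were sorted at 9 h or 6 h, and each construct and hour has a replicate number 2 and a number 1, which makes 6 groups of 2 arrays. All groups are the same cell line and all carry GFP. In the sample titles the hours run from infection for PRWT and PR2VR and from transfection for GFP, so any difference in handling cannot be told apart from the construct. The labels do not say whether the replicates were separate transfections, so the p-values rest on a spread among these samples that may be technical only. The 3 arrays of 1 hour and replicate number, 1 of each construct, are called a set.

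Signals are MAS5 values on a linear scale, in arbitrary units, that the authors had scaled to a trimmed mean of about 1500.2 on every array. Differences are of log2(signal + 62.5), and a gene entered the tests where its mean reached a signal of 168.9, which 13959 genes did. Of the monocytic and myeloid markers measured, 9 of 10 passed that filter, with LYZ (lysozyme) at a median signal of 7558.6 and ITGB2 (an integrin chain of leukocytes) at 8802.8, while SPI1 (a myeloid transcription factor) did not, at 66.2. Markers of other cell types that passed were 2 of 5 for T cells, 3 of 3 for B cells (PAX5 at a median of 4600.2), 1 of 5 for erythroid cells and megakaryocytes, and 3 of 7 for epithelium and fibroblasts. The sets differed in RNA quality. The 3'/5' signal ratios, which rise as the 5' end is lost, were for GAPDH lowest in 9 h number 2, at 2.21 to 2.75, and higher than in most other arrays in 9 h number 1, at 8.14 to 12.9, while the 6 arrays of 6 h lay at 3.82 to 8.28. For actin they were 7.79 to 10.7 in 9 h number 2, 33.6 to 58.2 in 9 h number 1 and 12.5 to 56.9 at 6 h. A further array, number 2 of PRWT at 6 h, stood apart in the oxidative phosphorylation genes themselves and is described with them. Results are given with and without these arrays where they rest on them.

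Promoter sequences are shown for genes with the highest signal in their complex (UQCRC2, COX4I1 and ATP5F1A) and for 3 complex I genes that were higher in replicate number 2 at both hours (NDUFA1, NDUFB4 and NDUFS4), which were chosen after their values were seen. They are RefSeq windows of build GRCh38.p14 around the annotated start of transcription, 300 bases long, of which the last 50 follow the start. The windows lie at chrX:119871582-119871881, chr3:120596086-120596385, chr5:53560389-53560688, chr16:21953111-21953410 and chr16:85799445-85799744 on the plus strand and, for ATP5F1A, at chr18:46104178-46104477 on the minus strand. Each is read 5' to 3' along its gene, and capitals mark matches on either strand to the NRF1 motif, in which 1 base is free, to CCGGAAG (ETS factors, among them GABPA) or to AAGATGGCG (YY1).
NDUFA1: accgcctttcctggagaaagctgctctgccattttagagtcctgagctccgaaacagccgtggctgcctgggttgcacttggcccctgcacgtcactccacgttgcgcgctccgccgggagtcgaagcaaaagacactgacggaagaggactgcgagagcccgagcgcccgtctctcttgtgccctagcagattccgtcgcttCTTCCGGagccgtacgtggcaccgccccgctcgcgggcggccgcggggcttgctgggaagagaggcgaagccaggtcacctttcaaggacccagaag
NDUFB4: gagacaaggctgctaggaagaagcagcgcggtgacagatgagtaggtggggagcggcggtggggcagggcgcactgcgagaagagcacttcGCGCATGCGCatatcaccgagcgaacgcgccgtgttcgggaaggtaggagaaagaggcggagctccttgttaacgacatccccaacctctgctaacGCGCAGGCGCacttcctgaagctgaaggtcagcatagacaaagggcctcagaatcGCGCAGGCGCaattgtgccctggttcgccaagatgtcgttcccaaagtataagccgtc
NDUFS4: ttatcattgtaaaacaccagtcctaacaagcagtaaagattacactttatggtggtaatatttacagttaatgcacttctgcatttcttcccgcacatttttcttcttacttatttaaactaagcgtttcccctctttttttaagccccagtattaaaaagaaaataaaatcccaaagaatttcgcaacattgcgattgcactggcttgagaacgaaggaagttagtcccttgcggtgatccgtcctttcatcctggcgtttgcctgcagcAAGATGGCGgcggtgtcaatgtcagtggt
UQCRC2: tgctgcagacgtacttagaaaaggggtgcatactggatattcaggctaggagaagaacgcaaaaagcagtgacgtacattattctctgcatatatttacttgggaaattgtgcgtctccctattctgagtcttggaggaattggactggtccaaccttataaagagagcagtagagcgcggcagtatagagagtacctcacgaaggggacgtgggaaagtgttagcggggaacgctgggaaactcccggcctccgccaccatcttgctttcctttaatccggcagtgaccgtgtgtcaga
COX4I1: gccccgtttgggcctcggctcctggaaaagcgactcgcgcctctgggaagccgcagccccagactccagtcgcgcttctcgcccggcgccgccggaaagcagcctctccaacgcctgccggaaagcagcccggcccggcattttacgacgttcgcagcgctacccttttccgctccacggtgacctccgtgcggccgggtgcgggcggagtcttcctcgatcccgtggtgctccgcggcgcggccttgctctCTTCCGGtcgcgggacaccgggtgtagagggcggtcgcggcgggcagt
ATP5F1A: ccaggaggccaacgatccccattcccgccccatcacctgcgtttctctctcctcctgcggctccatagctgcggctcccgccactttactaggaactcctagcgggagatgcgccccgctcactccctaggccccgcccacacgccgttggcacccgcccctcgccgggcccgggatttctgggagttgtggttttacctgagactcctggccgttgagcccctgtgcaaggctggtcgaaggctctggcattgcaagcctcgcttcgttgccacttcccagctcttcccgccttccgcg
NRF1, GABPA and YY1 are known activators of nuclear genes for respiratory subunits. The NDUFB4 window held 3 NRF1 matches, beginning 159, 63 and 8 bases before the start. NDUFA1 held 1 ETS match, beginning 47 bases before the start, COX4I1 held 1 ETS match at base 3 after the start, and NDUFS4 held 1 YY1 match at base 22 after the start. The UQCRC2 and ATP5F1A windows held no match to these 3 spellings. NDUFB9 and SDHC, with the highest signal in complexes I and II, are not shown. Windows of this length were matched for 65 members. Of these, 24.6% (16) held the NRF1 spelling, against 5.78% of all 35116 promoters, 27.7% (18) held the ETS spelling, against 10.3%, and 10.8% (7) held the YY1 spelling, against 1.75%. At least 1 of the 3 was found in 53.8% of the member windows, against 16.1% of all windows. The member windows were limited to protein-coding genes and to 1 window per gene. All windows were taken without either limit, so these shares do not compare like sets. Of the members higher in number 2 at both hours, 8 had a window. A match was found in 5 of these 8 (62.5%), near the 53.8% of all member windows, and COX7B, ATP5MC2 and ATP5F1E held none.

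Nearly all members gave a strong signal. The filter was passed by 77 of the 81, and 46 of these 77 lay among the 1396 genes of the highest signal decile. Over the 77 genes the median mean log2 signal was 13.97, against 10.66 for all genes that passed. Signals of different probe sets depend on the probes as well as on the transcripts, so these figures do not rank the genes by transcript number. Of the subunits with the highest signal in their complex, NDUFB9 (complex I, an accessory subunit) ranged over the 12 arrays between 45003.6 and 100055. SDHC (a membrane anchor of complex II) ranged between 8918.9 and 25469.5, UQCRC2 (a core protein of complex III) between 45873.0 and 79804.7, COX4I1 (the broadly expressed form of COX4 in complex IV) between 53301.4 and 110384, and ATP5F1A (the alpha subunit of the ATP synthase) between 81931.5 and 150891.

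Complex IV has several subunits with tissue-restricted isoforms. Each is given here by its own range, since probe sets are not set against each other. COX7A1 (the heart and muscle isoform) and COX7B2 did not pass the filter, and reached at most 127.8 and 348.1 units. Their counterparts COX7A2 and COX7B read 14617.7 to 89798.5 and 9058.9 to 132974 units. The means of these 2 restricted forms fell short of the filter, though single arrays of COX7B2 read above its signal. COX6A2, the heart and muscle isoform of COX6A, passed narrowly with 50.6 to 389.6 units, and COX6B2, known from testis, with 73.4 to 842.4 units. COX6A1 read 9138.9 to 49482 and COX6B1 7085.4 to 53863.8 units. The restricted forms COX6A2 and COX6B2 thus had arrays on both sides of the filter's signal. COX4I2, known from lung, read 720.3 to 1978.7 units. COX8C read 1729.7 to 4574.2 and COX8A 8012.6 to 34841.4 units. The other members below the filter were the pseudogene COX6A1P1 (36.2 to 255.7) and ATP5MF, a membrane subunit of the ATP synthase, whose only probe set with 1 symbol had a mean of 82.2 units. These 4 genes were not tested for differences.

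Members passed the tests between replicate numbers, taken within 1 hour, and not those between constructs, averaged over hours and numbers. Within a single set constructs could differ as much. PR2VR minus PRWT had a member median of -1.15 in 6 h number 2 (74 of 77 below 0), against -0.20 to 0.02 in the other sets. At 9 h, 26 of the 77 tested genes differed between number 2 and number 1 in limma (adjusted p under 0.05), 21 of them higher and 5 lower in number 2. Among all genes tested 19.2% passed. For higher values alone the share was 10.1% of all genes, against 27.3% of the members, and for lower values 9.16% against 6.49%. At 6 h, 16 members passed, 15 higher and 1 lower in number 2, where 7.69% of all genes passed. The share that passed as higher was 3.24% of all genes and 19.5% of the members, and the share that passed as lower was 4.46% and 1.3%. In bulk RNA such as this, fewer cells of a type and less RNA per cell cannot be told apart, and the comparison at 9 h sets the arrays with the lowest 3'/5' ratios (GAPDH 2.21 to 2.75 in number 2) against those of 8.14 to 12.9 in number 1. At 6 h these ratios were 3.82 to 8.28 in number 2, against 3.99 to 5.27 in number 1. The part of RNA quality in these differences was not tested.

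The members that passed at both hours numbered 11 (14.3%), where 2.13% of the other 13882 genes tested did. Of the 11, 10 were higher in number 2 both times, as were 107 of the other genes. These 10 members were NDUFA1, NDUFS4 and NDUFB4 of complex I, UQCRB of complex III, and COX7B, COX8A and COX6B1 of complex IV. From complex V they were ATP5MC2, its pseudogene ATP5MC2P1 and ATP5F1E. NDUFA1, a small membrane subunit needed for complex I assembly, read 46310.3 (PRWT), 35296.3 (PR2VR) and 46906.8 (GFP) in number 2 at 9 h, against 6813.0, 11636.6 and 10735.9 in number 1. At 6 h it read 132891, 40930.6 and 67244.1 in number 2, against 13703.9, 15298.8 and 16142.6 in number 1 in the same order of constructs. The arrays of the 2 numbers did not overlap at either hour, and all 3 constructs lay on the same side. The log2 difference of NDUFA1 was 2.16 ± 0.33 at 9 h and 2.25 ± 0.33 at 6 h (SE, 3 arrays per number, limma adjusted p = 0.0022 and 0.0048).

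NDUFS4, a subunit near the NADH-oxidising module whose loss causes Leigh syndrome, read 5716.6 (PRWT), 6062.4 (PR2VR) and 5481.9 (GFP) in number 2 at 9 h, against 874.2, 2460.9 and 2031.1 in number 1. At 6 h it read 9280.2, 4193.7 and 2943.9 in number 2, against 1010.3, 1214.9 and 889.2 in number 1. Again each number 2 array exceeded each number 1 array of the same hour, by 1.77 ± 0.40 at 9 h and 2.17 ± 0.40 at 6 h on the log2 scale (limma adjusted p = 0.011 and 0.0089). COX7B, a small membrane subunit of complex IV, differed by 1.57 ± 0.32 at 9 h and 2.42 ± 0.32 at 6 h (limma adjusted p = 0.0068 and 0.0045). At 6 h its signal was 132974 (PRWT), 42583.9 (PR2VR) and 46077.7 (GFP) in number 2, against 12817.8, 9058.9 and 14457.3 in number 1. ATP5MC2, which encodes a copy of the c subunit of the ATP synthase ring, read 30904.8 (PRWT), 28627.8 (PR2VR) and 29561.1 (GFP) in number 2 at 9 h, against 3577.0, 6466.0 and 5865.0 in number 1. At 6 h ATP5MC2 read 57743, 14521.2 and 25966 in number 2, against 10219.2, 13556.5 and 4739.7 in number 1, in the same order. Its log2 differences were 2.52 ± 0.44 at 9 h and 1.68 ± 0.44 at 6 h (limma adjusted p = 0.0034 and 0.033). By construct the difference at 6 h was 2.49 in PRWT and 2.44 in GFP, but 0.10 in PR2VR. ATP5MC2P1 differed by 2.82 ± 0.43 and 1.59 ± 0.43, but the probe set of a near-identical copy may read ATP5MC2 transcripts as well. Its signal was low: number 1 at 9 h read 153.7 (PRWT), 150.9 (PR2VR) and 95.9 (GFP), below the filter's signal of 168.9. In GFP at 6 h number 1 it read 21.5. The plot of 8 genes by array shows these 4 subunits beside 4 that behaved otherwise.

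**Figure D1:**
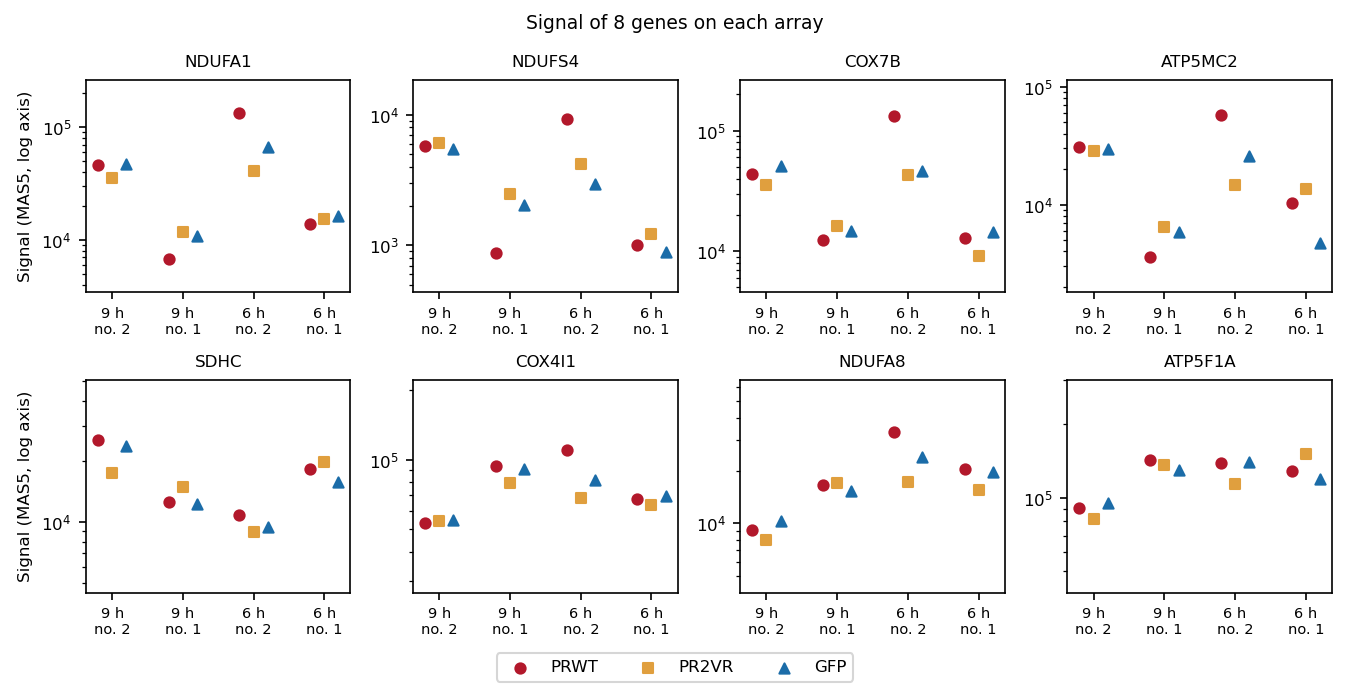
MAS5 signal (log axis) of 8 genes on each of the 12 arrays, by set on the horizontal axis, with a symbol per construct. NDUFA1, NDUFS4, COX7B and ATP5MC2 lie higher in number 2 than in number 1 at both hours, though ATP5MC2 only slightly in PR2VR at 6 h. SDHC changes side between the hours, and COX4I1, NDUFA8 and ATP5F1A lie lower in number 2 at 9 h.

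The remaining members that were higher both times spanned complexes I, III, IV and V. UQCRB, a ubiquinone-binding protein of complex III, differed by 1.67 at 9 h and 1.40 at 6 h, NDUFB4 by 1.44 and 1.26, COX8A by 1.16 and 1.18, ATP5F1E (the epsilon subunit of the ATP synthase) by 1.02 and 1.19, and COX6B1 by 0.85 and 1.36. Other probe sets of the same genes often read differently. The second NDUFS4 probe set differed by 0.92 ± 0.40 at 9 h and -0.86 ± 0.40 at 6 h, that of COX7B by -0.34 ± 0.34 and 0.26 ± 0.34, and that of NDUFB4 by -0.01 ± 0.30 and -0.06 ± 0.30, none of which passed in limma. Over the members that passed at 9 h there were 22 other probe sets, of which 15 had the same sign and 4 passed, and at 6 h there were 18, of which 10 had the same sign and 1 passed.

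The calls at both hours overlapped by 42.3% of those at 9 h and 68.8% of those at 6 h. The same shares were 11.1% and 27.9% over the other genes tested. Across the 77 genes the differences at 9 h and 6 h, which come from separate arrays, correlated at r = 0.49 (Spearman's rho 0.48), and across the other 13882 genes at r = 0.16 (rho 0.15). Genes are not independent replicates, and all genes of 1 array share its depth and RNA quality, so these values are a description.

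**Figure D2:**
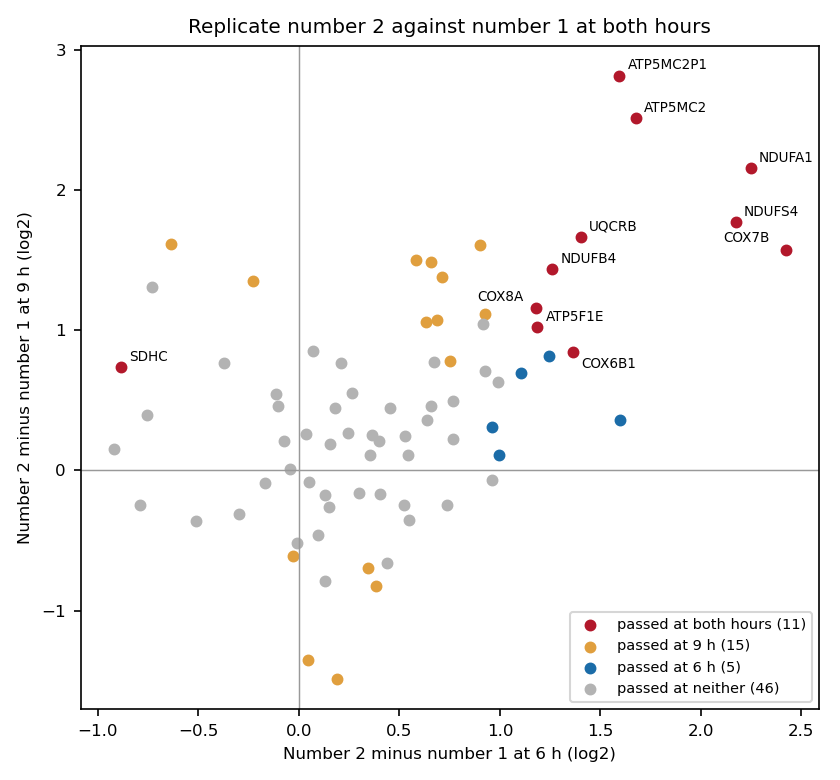
Log2 difference of number 2 minus number 1 at 9 h (vertical axis) against that at 6 h (horizontal axis) for the 77 tested genes, coloured by the hour at which they passed (limma adjusted p under 0.05). Of the 11 genes that passed at both hours, 10 lie above 0 on both axes, and SDHC lies to the upper left.

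Within constructs, the median member difference of number 2 from number 1 at 9 h was 0.47 in PRWT (53 of 77 above 0), 0.37 in PR2VR (54 above 0) and 0.44 in GFP (56 above 0). Over all genes these medians were 0.04, 0.12 and 0.06. At 6 h the medians were 1.04 in PRWT (68 above 0), 0.09 in PR2VR (43 above 0) and 0.36 in GFP (60 above 0), against -0.07, -0.22 and -0.04 over all genes. So the 3 constructs had like medians at 9 h, while at 6 h PRWT carried the largest one. All 3 number 2 arrays lay above all 3 number 1 arrays in 43 of the 77 genes at 9 h, where 24.7% of all genes did, and in 20 at 6 h, where 8.68% did. The opposite order held in 13 genes at 9 h (19.6% of all genes) and in 2 at 6 h (14.5% of all genes).

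Single arrays moved these counts, which ran from 7 to 33 at 9 h and from 4 to 20 at 6 h with any 1 array left out. The omissions listed next all lowered the count. At 9 h the count of 26 became 7 without number 1 of PRWT, 14 without number 2 of PRWT, 12 without number 2 of PR2VR, 16 without number 1 of GFP and 11 without number 2 of GFP. At 6 h the count of 16 became 6 without number 1 of PRWT, 4 without number 2 of PRWT, 9 without number 1 of GFP and 10 without number 2 of GFP. The count at 6 h was also 9 without the 3 arrays of 9 h number 2, which enter it through the shared estimate of spread. Without the variance trend the counts were 17 at 9 h and 7 at 6 h. Shares over all genes in these settings are not given here, so the counts do not set the members apart from genes at large. The median difference over the 77 genes, 0.39 at 9 h and 0.44 at 6 h, stayed between 0.29 and 0.49 at 9 h and between 0.21 and 0.60 at 6 h when any 1 array was left out.

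Of the 3 complex II genes, SDHC passed at both hours, in opposite directions. SDHC read 25469.5 (PRWT), 17569.7 (PR2VR) and 23814.8 (GFP) in number 2 at 9 h, against 12534.5, 14941.2 and 12272.9 in number 1. At 6 h it read 10794.8, 8918.9 and 9439.4 in number 2, against 18435.6, 19859.3 and 15840.3 in number 1. It was thus higher in number 2 at 9 h by 0.73 ± 0.21 and lower at 6 h, by -0.89 ± 0.21 (log2, limma adjusted p = 0.027 and 0.022). SDHA, the flavoprotein that oxidises succinate, differed by -0.79 ± 0.28 at 9 h (limma adjusted p = 0.063) and 0.13 ± 0.28 at 6 h. SDHD, the other membrane anchor, differed by 0.45 ± 0.33 at each hour and did not pass. At 9 h its difference was 0.56 in PRWT, 0.27 in PR2VR and 0.52 in GFP. At 6 h it was -0.17 in PRWT, 1.75 in PR2VR and -0.23 in GFP, and without number 1 of PR2VR the value at 6 h was -0.08. The probe set of SDHC used here was the brightest of 7, and the 6 others were all above 0 at 9 h, while at 6 h 5 of them were above 0 too, against its own negative difference.

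A small group of genes, some of them with high signal, was lower in number 2 at 9 h. COX4I1 read 53301.4 (PRWT), 54431.4 (PR2VR) and 54765.1 (GFP) in number 2, against 94130.0, 79167.2 and 91111.1 in number 1, a difference of -0.70 ± 0.18 (limma adjusted p = 0.017). NDUFA8, an accessory subunit of complex I, read 9205.5, 8024.1 and 10263.1 in number 2, against 16455.6, 16976.6 and 15236.5 in number 1 (-0.83 ± 0.21, limma adjusted p = 0.019). ATP5F1A read 90461.3, 81931.5 and 95101.0 in number 2, against 142277, 136309 and 129232 in number 1 (-0.61 ± 0.17, limma adjusted p = 0.023). In all 3 the numbers did not overlap at 9 h. At 6 h their differences were 0.34 ± 0.18, 0.38 ± 0.21 and -0.03 ± 0.17, none of which passed. The other 2 genes that were lower at 9 h were NDUFB10, a complex I subunit (-1.35 ± 0.41), whose second probe set differed by 0.46 ± 0.36, and the low-signal antisense RNA NDUFB2-AS1 (-1.49 ± 0.42). A test of the difference between the hours, added after the values were seen, passed for 3 of the 77 genes, SDHC, COX4I1 and NDUFA8, where 5.91% of all genes passed.

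Genes of the wider pathway were counted in 5 further lists, beside 19.2% of all genes that passed at 9 h and 7.69% at 6 h. Of 76 genes for mitochondrial ribosomal proteins, 6 were higher and 2 lower in number 2 at 9 h, and 15 were higher and 0 lower at 6 h, among them MRPL40 (1.37 ± 0.30, limma adjusted p = 0.017). Of 45 assembly factors, 6 were higher and 4 lower at 9 h, with SDHAF3, an assembly factor of complex II, at 1.82 ± 0.40 and SCO2, a copper carrier for complex IV, at -0.99 ± 0.19. At 6 h 3 assembly factors were higher and 0 lower. Of 15 genes for mitochondrial DNA upkeep and regulators, 1 was higher and 2 were lower at 9 h, the lower ones being GABPB1, a partner of GABPA (-1.77 ± 0.27, limma adjusted p = 0.0021), and TWNK, the mitochondrial DNA helicase (-1.60 ± 0.25, limma adjusted p = 0.0022), and 0 passed at 6 h. Of 11 citrate cycle genes, 1 passed at 9 h, SUCLA2 (0.75 ± 0.21), and 0 at 6 h. Of 3 further carriers and subunits (CYC1, CYCS and NDUFAB1), 0 passed at either hour. The shares of the lists that passed were 10.5% of the ribosomal proteins, 22.2% of the assembly factors, 20% of the upkeep genes and 9.09% of the citrate cycle genes at 9 h. At 6 h they were 19.7% of the ribosomal proteins and 6.67% of the assembly factors. At 9 h the ribosomal proteins had a median difference of 0.39 (57 above and 19 below 0). At 6 h it was 0.50 (62 above and 14 below 0). Those of the 77 members were 0.39 and 0.44, so a shift of this size was not particular to them. Medians at 9 h and 6 h were -0.09 and 0.11 for assembly factors and -0.06 and -0.04 for citrate cycle genes. For the upkeep genes they were -0.06 and -0.41, and for the 3 further carriers and subunits 0.02 and 0.27.

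**Figure D3:**
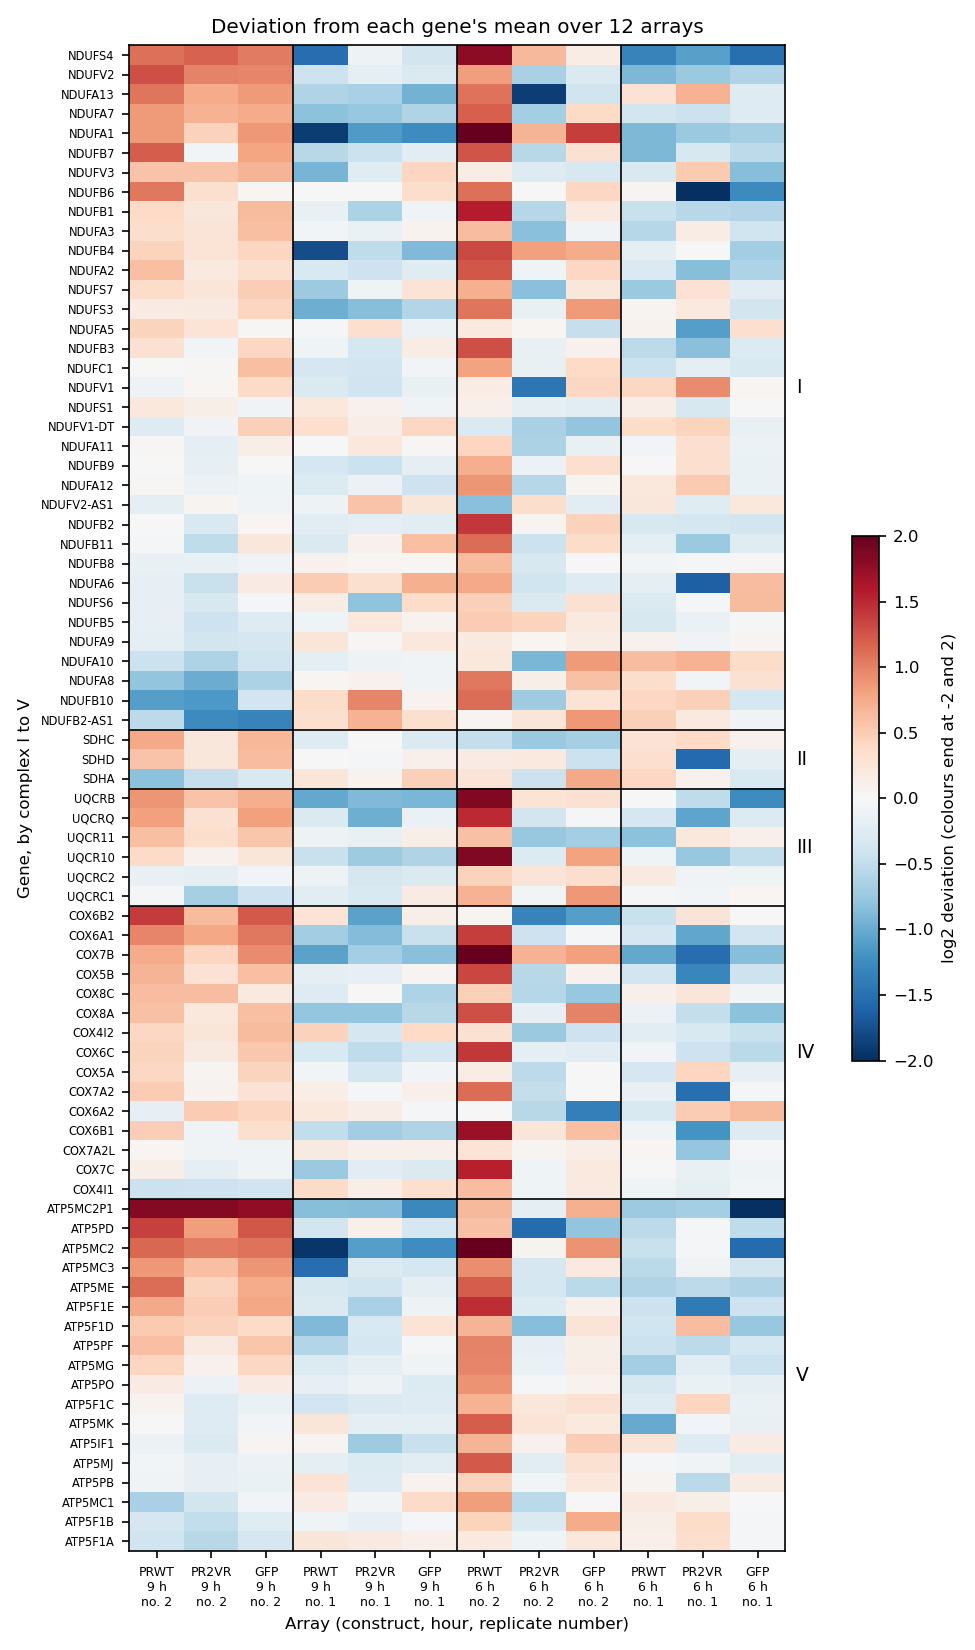
Log2 deviation of each of the 77 tested genes (rows, by complex I to V) from its mean over 12 arrays (columns, by set and construct); red is above and blue below the mean. The column of PRWT at 6 h number 2 is red in 73 of 77 rows, and the 3 columns of 9 h number 2 share red rows such as NDUFS4, NDUFV2, COX6A1 and ATP5MC2 and blue rows such as NDUFA8, COX4I1 and ATP5F1A.

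The array of PRWT at 6 h, number 2, read higher in nearly the whole system. There, 73 of the 77 genes lay above their own 12-array mean, and the median deviation was 0.81 on the log2 scale, against -0.23 to 0.38 on the other 11 arrays. The medians by complex were 0.81 for complex I, 0.17 for complex II, 1.09 for complex III, 1.11 for complex IV and 0.86 for complex V. On the same array the 1350 other genes of the highest signal decile had a median deviation of 0.10, and all genes tested one of -0.06. Mitochondrial ribosomal proteins lay at a median of 0.75 (65 of 76 genes above their mean), assembly factors at 0.17 (33 of 45) and citrate cycle genes at 0.07 (6 of 11). The 3 further carriers and subunits lay at 0.74 (3 of 3), and the genes for mitochondrial DNA upkeep and regulators below their means, at -0.26 (5 of 15 above). The GAPDH 3'/5' ratio of this array was 8.28, the highest at 6 h, where the other 5 arrays had 3.82 to 5.27. Its actin ratio of 27.5 was not the highest at 6 h. PR2VR of the same set had an actin ratio of 56.9, with a median member deviation of -0.22. The part of RNA quality in the shift was not tested. The shifted array is 1 library, with no second array that shows the shift in PRWT at 6 h.

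**Figure D4:**
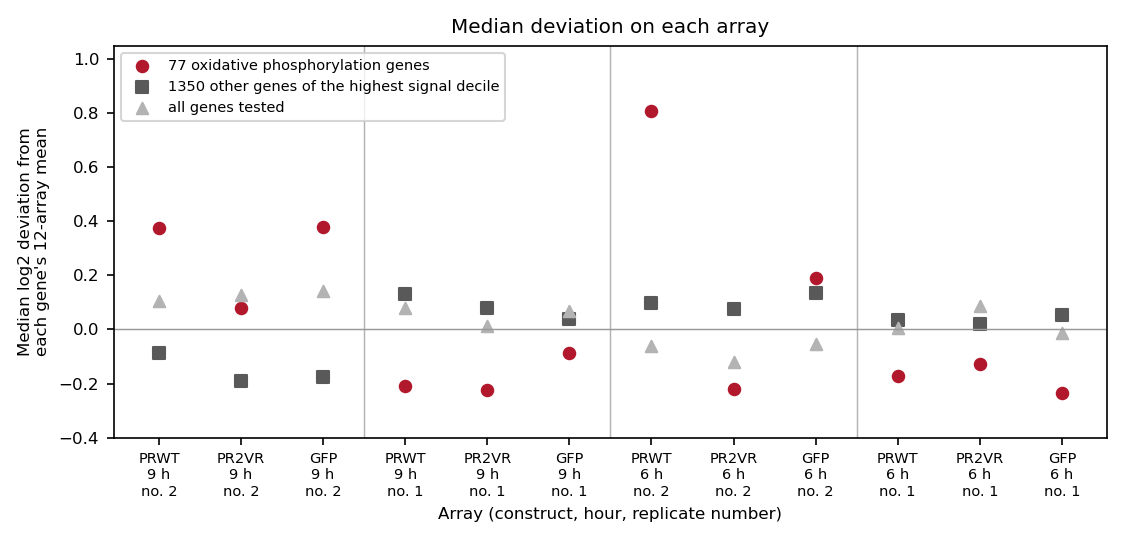
Median log2 deviation from each gene's 12-array mean on each array, for the 77 oxidative phosphorylation genes (circles), 1350 other genes of the highest signal decile (squares) and all genes tested (triangles). The circle of PRWT at 6 h number 2 lies at 0.81, and no other circle lies above 0.38.

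The first comparison between constructs set both forms of the fusion against GFP. No member passed: 0 of 77 genes differed between both fusions and GFP in limma, where 0.00716% of all genes passed (1 gene), and 0 members had an unadjusted p under 0.05, against 3.14% of all genes. With the set as a block, 0 members passed as well, against 0.645% of all genes, and 2 members (2.6%) had an unadjusted p under 0.05, against 9.29% of all genes. The median difference over the 77 genes was -0.02 (34 above and 43 below 0), and over all genes tested -0.02. The largest positive difference was that of COX8C, at 0.46 ± 0.30 (SE, 8 arrays against 4). Its signals were 4574.2, 2456.6, 4159.8 and 3174.4 in PRWT and 4560.8, 2969.1, 1973.5 and 3492.2 in PR2VR, against 3402.6, 1899.8, 1729.7 and 2832.6 in GFP (9 h number 2 and 1, then 6 h number 2 and 1). In each set both fusion arrays lay above the GFP array, while the groups as a whole overlapped. The share of all genes with this order is not given here. The most negative was NDUFS6, a complex I subunit, at -0.48 ± 0.23. SDHA (-0.23 ± 0.30), UQCRC1, a core protein of complex III (-0.25 ± 0.25), and ATP5F1B, the catalytic beta subunit of the ATP synthase (-0.16 ± 0.23), had the smallest p of their complexes. The values of SDHA and ATP5F1B turned to 0.03 each, and that of UQCRC1 to -0.04, without number 2 of GFP at 6 h.

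For PRWT against GFP, 0 of 77 genes passed, where 0.00716% of all genes did, and with the block 0 members passed, against 0.107% of all genes. The median difference was 0.14, with 60 genes above and 17 below 0, while that over all genes was 0.0044. This shift rested on 1 array. By set, the median was -0.01 in 9 h number 2, -0.13 in 9 h number 1, 0.74 in 6 h number 2 (68 of 77 above 0) and 0.06 in 6 h number 1. Without number 2 of PRWT at 6 h it turned to -0.09, with 24 genes above and 53 below 0. With all arrays, the 76 mitochondrial ribosomal proteins had a like median of 0.15 (59 above and 17 below 0). Named values were 0.71 ± 0.58 for UQCRB, 0.67 ± 0.49 for NDUFB6 (a complex I membrane subunit), 0.54 ± 0.35 for COX8C, 0.49 ± 0.43 for ATP5ME (a membrane subunit of the ATP synthase) and 0.24 ± 0.35 for SDHD, all with limma adjusted p = 1.0. Single arrays moved them: UQCRB was at 0.23 without number 2 of PRWT at 9 h, NDUFB6 at 0.25 without number 1 of GFP at 6 h and ATP5ME at 0.04 without number 2 of PRWT at 6 h.

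For PR2VR against GFP, 0 of 77 genes passed, where 0.00716% of all genes did, and with the block 0 members passed, against 0.616% of all genes. The median difference was -0.15 (15 above and 62 below 0), against -0.03 over all genes. It was -0.25 in 9 h number 2, -0.14 in 9 h number 1, -0.39 in 6 h number 2 and 0.10 in 6 h number 1, so 3 of the 4 sets lay below 0. The 76 mitochondrial ribosomal proteins had a median of -0.11 (24 above and 52 below 0). This comparison shares the GFP arrays with that of PRWT. NDUFS6 read 32802.6, 23623.1, 33664.3 and 40287.4 in PR2VR, against 40095.0, 53340.8, 50608.4 and 64227.8 in GFP (9 h number 2 and 1, then 6 h number 2 and 1). PR2VR was below GFP in each of the 4 sets, with a difference of -0.68 ± 0.27 (unadjusted p = 0.023, limma adjusted p = 1.0). NDUFA6, another accessory subunit of complex I, had the other unadjusted p under 0.05, at -0.84 ± 0.37. These 2 are 2.6% of the members, where 3.95% of all genes had an unadjusted p under 0.05. By set NDUFA6 differed by -0.60 in 9 h number 2, -0.40 in 9 h number 1, -0.13 in 6 h number 2 and -2.24 in 6 h number 1, and without number 1 of PR2VR at 6 h its value was -0.54. NDUFA6 too was thus below GFP in each set, as were UQCRC1, NDUFB11 and UQCRQ among others. This order does not mark out NDUFS6, and the share of all genes that have it is not given here. COX7A2 differed by -0.58 ± 0.32, UQCRC1 by -0.44 ± 0.29, SDHA by -0.33 ± 0.35 and ATP5PB, a stalk subunit of the ATP synthase, by -0.33 ± 0.23. COX7A2 was at -0.33 and ATP5PB at -0.21 without number 1 of PR2VR at 6 h, and SDHA at -0.07 and UQCRC1 at -0.23 without number 2 of GFP at 6 h.

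For PR2VR against PRWT, which asks whether the 2 forms of the fusion differ, 0 of 77 genes passed and 0 of all genes tested did (0%), with the block as without it. Unadjusted p was under 0.05 in 1 member (1.3%), against 1.55% of all genes, and with the block in 18 members (23.4%), against 7.64% of all genes. The median difference was -0.29, with 8 genes above and 69 below 0. Over all genes it was -0.01, with 48.7% above 0. By set the member median was -1.15 in 6 h number 2 (74 of 77 below 0), against -0.20 in 9 h number 2 (66 below 0), -0.05 in 9 h number 1 and 0.02 in 6 h number 1. Without number 2 of PRWT at 6 h the median was -0.12 (23 above and 54 below 0). With all arrays, the 76 mitochondrial ribosomal proteins had a median of -0.24 (16 above and 60 below 0). COX7A2 read 43428.3, 40274.5, 29689.2 and 14617.7 in PR2VR, against 58847.4, 45542.2, 89798.5 and 37553.7 in PRWT (9 h number 2 and 1, then 6 h number 2 and 1). It was lower in PR2VR in each set, by -0.89 ± 0.32 over all (unadjusted p = 0.014, limma adjusted p = 1.0). UQCRC2, ATP5PB and NDUFA6, among others, were lower in each set too. UQCRQ of complex III differed by -0.94 ± 0.45, NDUFA6 by -0.76 ± 0.37, SDHD by -0.56 ± 0.35 and ATP5IF1, the inhibitor, by -0.51 ± 0.26. Without number 2 of PRWT at 6 h COX7A2 was at -0.58 and UQCRQ at -0.48, and without number 1 of PR2VR at 6 h NDUFA6 was at -0.45 and SDHD at -0.12.

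These comparisons do not show that the genes stayed the same. The 95% confidence interval of the difference lay within a log2 of 1 in either direction for 54 of the 77 genes over both fusions, for 41 in PRWT, for 35 in PR2VR and for 31 between the 2 forms. NDUFA1, NDUFS4, COX7B and ATP5MC2 were among the least precise, with an SE of 0.65 to 0.70 over both fusions. In simulated data of 13959 genes for both fusions against GFP, the test recovered 15.8% of log2 changes of 1 and 72.2% of log2 changes of 2. The intervals, SEs and simulated spread come from the fit without the set as a block, in which differences between sets count as spread. Over both fusions the median SE of the 77 genes was 0.32 in that fit and 0.22 with the block.

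**Figure D5:**
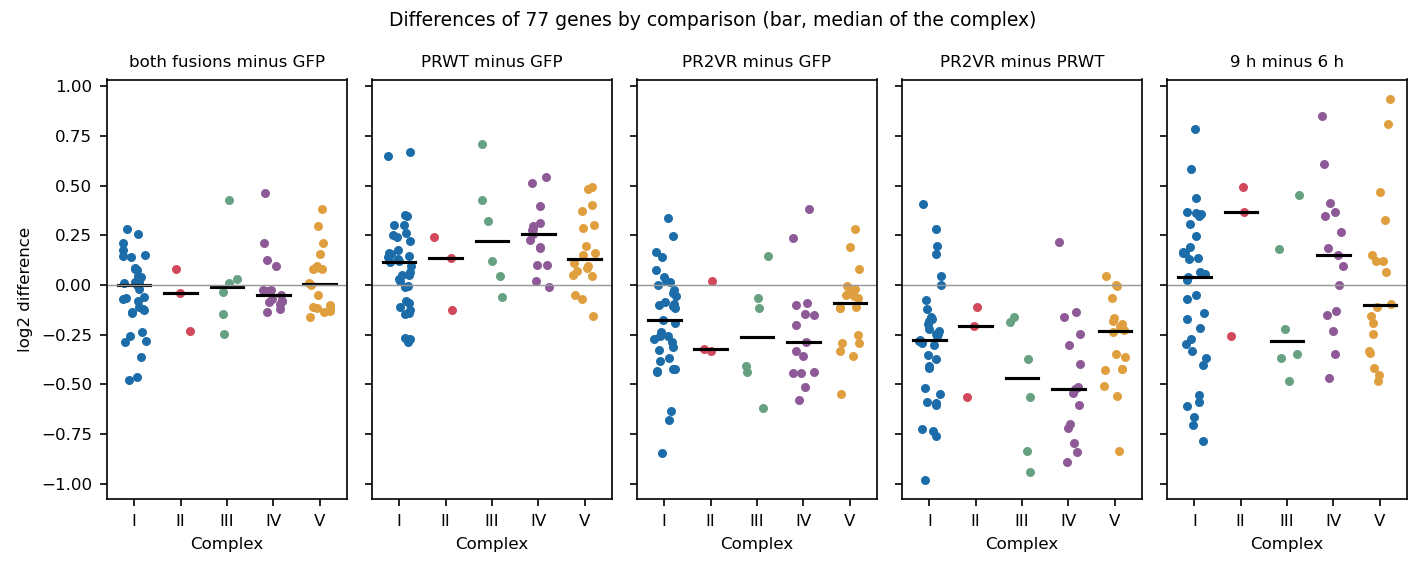
Log2 differences of the 77 tested genes by complex in 5 comparisons, each point a gene and each bar the median of its complex. With all arrays included, the points of PRWT minus GFP lie mostly above 0 (mostly below 0 without number 2 of PRWT at 6 h) and those of PR2VR minus GFP and PR2VR minus PRWT mostly below 0, and no point passed in limma (adjusted p under 0.05) in any of the 5.

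Between the hours, 0 of 77 genes differed at 9 h against 6 h in limma, where 0.0788% of all genes passed (11 genes), and with the number as a block 0 members and 1.17% of all genes passed. The median difference was 0.04 (40 above and 37 below 0), against 0.13 over all genes. Unadjusted p was under 0.05 in 4 members (5.19%), against 15.1% of all genes. NDUFA8 read 8024.1 to 16976.6 units at 9 h, against 15415.7 to 33087.5 units at 6 h, and the hours overlapped. Its difference was -0.78 ± 0.26 (limma adjusted p = 0.23). COX4I2 differed by 0.61 ± 0.24, ATP5PD, a stalk subunit of the ATP synthase, by 0.94 ± 0.40 and ATP5IF1 by -0.48 ± 0.21. UQCRC1 (-0.48 ± 0.23) and SDHD (0.49 ± 0.29, or 0.20 without number 1 of PR2VR at 6 h) had the smallest p of their complexes. The GAPDH 3'/5' ratios were 2.21 to 2.75 and 8.14 to 12.9 in the 2 sets of 9 h, against 3.82 to 8.28 at 6 h. Without 9 h number 2, which leaves the set with ratios of 8.14 to 12.9 for 9 h, the median turned to -0.20 (28 above and 49 below 0), and the part of RNA quality was not tested. Whether the effect of the fusions differed between 9 h and 6 h was tested as an interaction, in which 0 members and 0 of all genes passed (0%). Its median was -0.22 over the members and -0.02 over all genes. That of the members turned to 0.07 without number 2 of PRWT at 6 h. In these comparisons of constructs and hours, 0 of the genes in the 5 lists of the wider pathway passed.

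The spread over the 12 arrays differed among the members. Their median SD was 0.54 on the log2 scale, and that of all genes tested was 0.54 too. The steadiest were NDUFS1 (SD 0.18), the largest core subunit of complex I, NDUFA9 (0.21) and NDUFB8 (0.23). NDUFS1 read between 4303.5 and 6239.7 on the 12 arrays. The most variable were ATP5MC2P1 (1.34), NDUFA1 (1.28), ATP5MC2 (1.27), NDUFS4 (1.17) and COX7B (1.16). All 5 of these passed between the replicate numbers at both hours, which is no separate result, since their SD holds those same differences.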

How the data were processed

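RNA of 12 samples was measured on 1 Affymetrix array each, and samples were grouped by the construct, hour and replicate number in their titles. The deposited intensity values are MAS5 signals per probe set on a linear scale, per the submitters' processing notes, and range between 0.5 and 289408.3. They were not normalized further. Genome build and MAS5 version are not given in the sources used here. For each gene the probe set with 1 symbol and the highest mean log2(signal + 62.5) was taken (62.5 being the 20th percentile of all signals), and genes were tested where that mean reached the 40th percentile of probe sets (7.85). The log2 scale understates changes of low signals. Entrez numbers of all 81 members matched the RefSeq table, and 15 probe sets that name several genes were not used.

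limma 3.58.1 in R 4.3.3 was fitted to all 12 arrays with 1 mean per group (6 residual degrees of freedom) and a variance trend, with Benjamini-Hochberg adjustment over 13959 genes. Replicate numbers were compared with construct and set as terms. Same-numbered arrays of 1 hour deviated from their group means together (r = 0.15 to 0.63 in 6 pairs of constructs), and those of different hours less so (r = -0.02 to 0.19 in 9 pairs), so the numbers of the titles were taken to pair arrays within an hour and the set was also fitted as a block. In 5 simulated data sets with 200 changed genes there were 3.6 false calls on average. Genes were named by rule: per complex the highest signal, the genes with the largest changes among those that passed (up to 4 a direction) or otherwise the smallest p, all SDH genes, the COX isoform pairs, and up to 2 genes per wider list. The members, lists and tests were chosen with earlier results of these data known. The number of arrays limits the precision.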

Additional observations from a re-analysis of the deposited data

Results flagged for a closer look

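For 3 genes the difference of number 2 from number 1 was not the same at 9 h as at 6 h, by a limma test of the difference itself that was added after the values were seen. These are 3 of 77 members (3.9%), where 5.91% of all genes passed the same test. SDHC had a difference that was 1.62 ± 0.30 higher at 9 h than at 6 h (log2, SE, adjusted p = 0.015), with all 3 constructs above 0 at 9 h and all 3 below 0 at 6 h. Most other SDHC probe sets were above 0 at 6 h, unlike the one used, which was the brightest of 7. For COX4I1 the 9 h difference minus the 6 h difference was -1.04 ± 0.25 (adjusted p = 0.032), and for NDUFA8 it was -1.21 ± 0.30 (adjusted p = 0.038). Both genes were lower in number 2 in all 3 constructs at 9 h and above 0 in all 3 at 6 h. For COX4I1 the probe set used was the brightest of 4, and the others are not described here. The replicate numbers are not conditions of the study, and the 9 h number 2 arrays also had the lowest 3'/5' ratios (GAPDH 2.21 to 2.75, against 8.14 to 12.9 in 9 h number 1).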

How the results depend on the processing

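No member passed in the comparisons of constructs, of hours or in their interaction under any alternative run: other offsets, quantile normalization, no filter or a stricter filter, all probe sets, no variance trend, the replicate block, and each array left out. The replicate block was also fitted beside the 6 group means, with quantile normalization and without the trend, settings that were chosen after seeing the data, again with 0 members. The block changed no call of a member. Of the counts for the replicate numbers, that at 9 h was 17 without the variance trend (26 with it) and 7 to 33 when 1 array was left out. The count at 6 h was 7 without the trend, 9 without the 3 arrays of 9 h number 2 (16 with all arrays) and 4 to 20 when 1 array was left out. Shares over all genes in these settings are not given here. In both fusions against GFP, the difference of SDHA turned to 0.033 and that of ATP5F1B to 0.031 without number 2 of GFP at 6 h, within ranges of -0.496 to 0.033 and -0.356 to 0.031 over single arrays left out, and the cause was not tested. Among 13 named values that passed, 29 of 156 omissions of an array and 6 of 94 other alternatives left them short of the threshold, with the direction kept. Signals near the filter, as for COX6A2 and COX6B2, limit what can be measured there.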
